A study of Mus musculus with 2 samples.

Results

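CpG cytosines that were partly methylated in wildtype (wt) MEFs and above 80 % methylation in MEFs lacking oestrogen receptor β (βerko) are described here. They were selected on the 2 measured levels alone, with 20 to 80 % methylation in wt and more than 80 % in βerko MEFs. This gave 42069 of the 826937 cytosine positions covered in both libraries, or 5.09 %. Of the 142556 positions that were partly methylated in wt MEFs, they made up 29.5 %. Another 42.5 % of these partly methylated positions stayed between 20 and 80 % in βerko MEFs, and 28.0 % went below 20 %. MEFs are embryonic fibroblasts grown in culture. Both cell types were of strain C57BL/6, and the βerko cells carried the genotype ESR2 -/-, a null genotype of the gene for oestrogen receptor β. Each was represented by 1 RRBS library of genomic DNA pooled from 3 batches, so that there were no replicates, and genotype and cell culture cannot be told apart. No test was made, and every difference is one between these 2 libraries.

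Methylation of a CpG is set by DNA methyltransferases, kept through cell division by copying the pattern to the new strand, and removed by dilution or by TET oxidation followed by base excision repair with thymine DNA glycosylase (TDG). In fibroblasts most CpGs outside CpG islands are methylated, and islands at gene starts are mostly free of methylation. An intermediate level means that only some of the DNA molecules were methylated, and pooled DNA does not tell whether these came from particular cells, alleles or batches. RRBS reads MspI fragments, which start and end at CCGG, and does not separate methylcytosine from hydroxymethylcytosine.

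The name fully methylated holds for these positions as a class above 80 % and not as complete methylation. Only 25.7 % of them were at exactly 100 % in βerko MEFs (95 % Wilson confidence interval 25.2 to 26.1 %), against 45.2 % of the positions above 80 % in both cell types. All 826937 positions were CpG cytosines of the genome build NCBIM37 (mm9). The table of common positions gives no coverage, and none of the 42069 positions is in the deposited tables of differentially methylated positions (DMPs), where coverage is given. The depth behind their values is therefore unknown. The 2055 deposited hypermethylated DMPs had 4 to 259 reads, with medians of 31 in wt and 29 in βerko MEFs. Confidence intervals here count positions only. Neighbouring cytosines share reads and are not independent, and reads from PCR are not independent molecules. Cell identity could only be looked at through promoter methylation of marker genes, of which 8 of 16 were covered. The promoters of the fibroblast genes Col1a1 and Pdgfrb were at 0 % in both libraries, over 3 and 1 positions. At Col1a2, 5 positions had means of 93.6 % in wt and 48.3 % in βerko MEFs, and at Vim 6 positions had 64.2 and 58.5 %. Of the epithelial genes, Cdh1 had 23.7 and 13.5 % over 36 positions, Krt18 54.4 and 26.4 % over 7, and Epcam 91.7 and 75 % over 2. The endothelial gene Pecam1 had 76.3 and 94.6 % over 2 positions, 1 of which belonged to the class. Whether the cell types of the 2 cultures differed was not tested.

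Sequences are shown for 6 of the runs described further on, because they show how close together the gaining CpGs lay and how many CpGs between them were outside the class or not covered. They are the plus strand of NCBIM37, 5′ to 3′, with 10 bases added on either side of the run. Capitals mark CpGs of which at least 1 cytosine was partly methylated in wt and above 80 % in βerko MEFs.
Run near Bcl11b, chr12:109244376-109244499: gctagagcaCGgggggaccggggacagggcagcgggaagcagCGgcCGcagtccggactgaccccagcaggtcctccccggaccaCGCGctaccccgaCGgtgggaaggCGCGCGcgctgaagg
Run in the Lhx9 promoter, chr1:140743976-140744013: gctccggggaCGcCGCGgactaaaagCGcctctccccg
Run in introns of Gm2301 and Gm16064, chr5:120106914-120107057: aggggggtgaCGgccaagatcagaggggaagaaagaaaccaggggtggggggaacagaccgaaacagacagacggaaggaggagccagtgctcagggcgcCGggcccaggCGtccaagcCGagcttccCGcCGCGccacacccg
Run in the coding exon of Hoxb5, chr11:96166223-96166321: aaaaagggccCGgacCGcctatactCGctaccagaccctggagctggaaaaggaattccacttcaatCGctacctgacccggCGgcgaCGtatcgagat
Run in the Ebf2 intron, chr14:67927876-67928072: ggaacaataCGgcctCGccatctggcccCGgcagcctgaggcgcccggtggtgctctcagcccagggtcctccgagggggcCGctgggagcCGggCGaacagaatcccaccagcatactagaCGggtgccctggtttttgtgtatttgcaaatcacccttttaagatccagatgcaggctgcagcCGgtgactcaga
Intergenic run nearest Gm10320, chr13:99272981-99273179: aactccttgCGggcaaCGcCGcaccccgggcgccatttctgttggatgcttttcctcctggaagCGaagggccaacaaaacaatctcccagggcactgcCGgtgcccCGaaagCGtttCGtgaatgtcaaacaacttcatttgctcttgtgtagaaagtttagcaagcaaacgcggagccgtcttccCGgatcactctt
In the run near Bcl11b, 9 of 15 CpGs of the printed stretch are marked, with 2 of them and then 3 of them directly following each other near its end. In the 38 bases at Lhx9, 4 of 6 CpGs are marked. In the intergenic stretch nearest Gm10320, 9 of 14 are marked.

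The gain of these positions was moderate for most and large for few. The median level was 66.0 % in wt MEFs and 93.1 % in βerko MEFs. The gain, which is the βerko minus the wt percentage, had a median of 27.4 percentage points, quartiles of 19.0 and 41.5 and a range from 0.39 to 80. It was at least 20 points at 73.1 % of the positions, at least 40 points at 27.7 %, and at least 60 points at 6.42 %. It was under 10 points at 2867 positions. In wt MEFs, 60.2 % of the positions had been above 60 % methylation and 11.3 % below 40 %. These figures describe the selection, since the rule used both levels. Over all 826937 positions, 6.81 % were higher in βerko MEFs by at least 20 points and 2.54 % by at least 40 points. Of the 20992 positions higher by at least 40 points, 55.6 % belonged to the class.

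The limits of the class cut through a continuum. Just inside the lower wt limit, 1146 positions had 20 to 25 % methylation in wt and were above 80 % in βerko MEFs, and just outside it were 593 positions from 15 to below 20 %. At the upper wt limit there were 11662 positions from 75 to 80 %, beside 12902 positions above 80 to 85 %. At the βerko limit, 6740 positions were above 80 to 85 % and 7598 partly methylated wt positions reached 75 to 80 %.

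**Figure D1:**
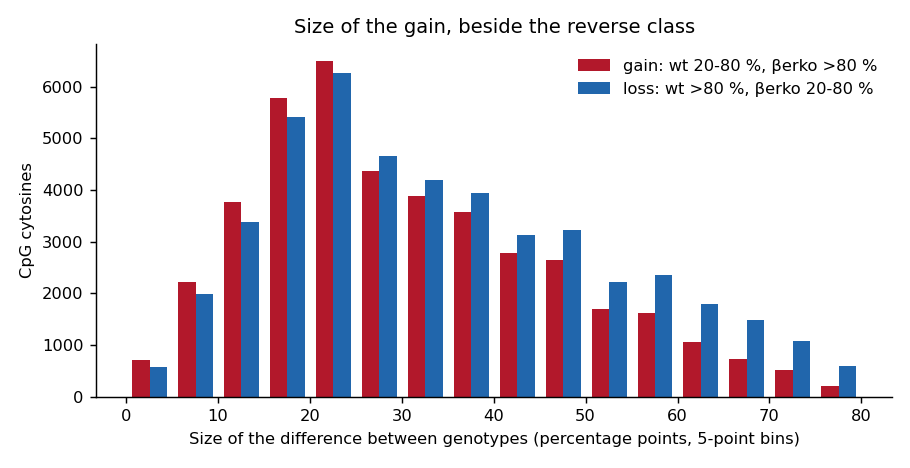
Number of CpG cytosines (y axis) by the size of the difference between wt and βerko MEFs in percentage points (x axis, bins of 5 points), for the gaining positions in red and for the reverse class in blue, which was above 80 % in wt and from 20 to 80 % in βerko MEFs. The gaining positions were most frequent from 20 to 25 points with 6499 positions, and only 205 lay above 75 points, against 593 of the reverse class.

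The reverse class was larger. Above 80 % in wt and from 20 to 80 % in βerko MEFs were 46292 positions, which were 37.1 % of the 124696 positions partly methylated in βerko MEFs. Their median difference was -31.1 points. The share of partly methylated positions that were above 80 % in the other cell type rose with the level. For the gaining class it was 7.96 % from 20 to 30 % methylation in wt (interval 7.63 to 8.31 %) and 52.5 % from 70 to 80 % (51.9 to 53.0 %). For the reverse class these shares were 17.4 and 54.0 %. The shares of both classes thus lay closest together next to the limit of 80 %.

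The cytosine on the opposite strand of the same CpG is a reading that the rule did not use for the selected position. RRBS reads it from other DNA strands of the same library. It was covered in both cell types for 4866 of the gaining positions. Its median was 68.8 % in wt and 93.1 % in βerko MEFs, and its median difference was 18.4 points (interval of the median 17.5 to 19.4). It was higher in βerko MEFs for 76.1 % of these positions (74.9 to 77.3 %), and for 48.5 % (47.1 to 49.9 %) it was itself a gaining position. Another 30.6 % of the opposite cytosines were above 80 % in both cell types. The 2360 opposite cytosines that were gaining positions are higher by the rule, and each of their 1180 CpGs is counted from both strands. The shares and intervals thus count positions and are raised by the selection.

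The opposite cytosine followed the size of the gain. Where the selected cytosine gained under 20 points, the opposite one was higher by a median of 4.45 points. With gains from 20 to 40 points the opposite median was 18.4, and with gains from 40 to 60 points it was 36.8. With gains of at least 60 points it was 49.97 (45.7 to 51.2), and there 93.1 % of the opposite cytosines were higher in βerko MEFs. Of these opposite cytosines at the largest gains, 62.0 % were themselves gaining positions. By comparison, the opposite cytosine of the other partly methylated wt positions had a median difference of -14.4 points, that of the reverse class -27.1 points, and the median over all positions was 0. The first 2 of these groups were also chosen by their levels, the first by leaving out every gaining position. Their own median differences were -19.8 and -34.0 points where both strands were covered, so that negative opposite values partly follow from the choice. As both strands come from the same 2 libraries, this is a second reading of the same DNA and not a biological replicate.

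At 1180 CpGs both cytosines belonged to the class, and their 2 gains differed by a median of 8.97 points. The CpG with the largest mean gain of both cytosines, 77.0 points, was at 132953127 on chromosome X, between genes and 12142 bp from the predicted gene Gm14990. It had 20.0 and 26.1 % methylation on the 2 strands in wt and 100 % on both in βerko MEFs. The next, at 59850915 on chromosome 9, lay in an intron of Thsd4, a gene for a protein of the extracellular matrix. Its strands went from 21.6 and 20.8 % to 100 and 95 %. The CpG at 88084243 on chromosome 6, which lay 28945 bp from Rpn1, went from 20.8 and 30.3 % to 100 and 97.8 %. Another, at 20851200 on chromosome 12, went from 31.0 and 23.1 % to 94.7 and 100 %.

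**Figure D2:**
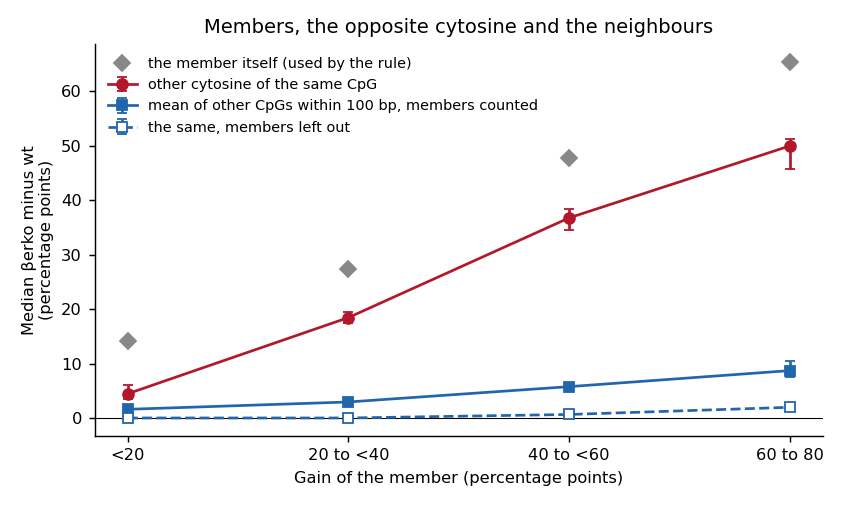
Median difference, βerko minus wt, in percentage points (y axis) for gaining positions grouped by the size of their own gain (x axis), for the position itself in grey, the opposite cytosine of the same CpG in red, and the mean of covered cytosines of other CpGs within 100 bp in blue, with gaining positions counted (filled squares) or left out (open squares). Bars are 95 % order-statistic intervals of the median; the opposite cytosine, with gaining positions counted, rises from 4.45 to 49.97 points, the neighbours from 1.59 to 8.70 points, and the neighbours without gaining positions from 0 to 1.96 points.

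Other CpGs nearby differed less than the opposite cytosine of the same CpG. Covered cytosines of other CpGs within 100 bp existed for 33515 of the gaining positions. With all of them counted, their mean difference had a median of 3.04 points (2.88 to 3.18). It lay within 20 points at 76.4 % of these positions and was a gain of at least 20 points at 17.7 %. The neighbours also followed the size of the gain, with medians of 1.59, 2.94, 5.76 and 8.70 points (7.60 to 10.53) from the smallest to the largest of the 4 groups of gains. Around positions that gained at least 60 points, 34.2 % of the neighbourhoods gained at least 20 points. Leaving out neighbours of the class removes those that gained under the same rule and so lowers these values. Without them the median was 0 points over 30685 gaining positions and 1.96 points around gains of at least 60 points. Many neighbours were already high in wt MEFs. From 1 to 10 bp away from gaining positions outside runs, 59.0 % of the covered positions outside the class were above 80 % in both cell types and 3.78 % were below 20 % in both. From 501 to 1000 bp away these shares were 23.6 and 42.5 %.

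Around the reverse class, with its own positions left out in the same way, the median difference of the neighbours was -1.23 points, and with none left out it was -7.73 points, in the direction of the loss. The shift of the neighbours with the selected position was thus larger for the reverse class than the 3.04 points around gaining positions. Of the gaining positions, 67.6 % had no other position of the class within 100 bp, and 30.7 % lay in chains of 2 to 4.

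The gaining positions lay mostly in CpG-poor DNA away from gene starts. Within the 501 bp around them there was a median of 11 CpGs, against 24 around the other partly methylated wt positions and 30 around all covered positions. The share of partly methylated wt positions that gained was 48.5 % with 1 to 5 CpGs in this window (47.4 to 49.5 %) and 3.72 % with more than 40 (3.502 to 3.95 %). The share that went below 20 % moved the other way, from 6.21 to 60.4 %. The reverse class depended less on density and did not fall steadily. Its share of the partly methylated βerko positions was 35.7 % in the sparsest windows, 43.4 % with 11 to 20 CpGs and 24.2 % in the densest windows. Windows with a GC content of at least 50 % and an observed to expected CpG ratio of at least 0.6, as used for CpG islands, surrounded 7.92 % of the gaining positions and 45.6 % of the other partly methylated ones. The median density of 11 and the island share were close to those of the positions above 80 % in both cell types, at 11 CpGs and 7.63 %.

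By place, intergenic DNA held 44.1 % of the gaining positions, introns 33.4 %, exons 17.8 % and promoters 4.72 % (4.52 to 4.93 %). A promoter was the stretch between 500 bp before and 100 bp after the start of an annotated transcript. Of all covered positions, 29.7 % lay in promoters and 21.6 % were intergenic. Among partly methylated wt positions, 9.11 % gained in promoters (8.73 to 9.50 %), 24.5 % in exons, 34.8 % in introns and 37.2 % in intergenic DNA (36.8 to 37.6 %). In promoters 53.2 % of them went below 20 %, and in intergenic DNA 15.6 %. The size of the gain differed little by place, with medians of 28.0 points in promoters, 25.9 in exons, 28.6 in introns and 27.2 in intergenic DNA. Within 500 bp of the nearest transcript start 9.44 % of the partly methylated positions gained, and from 10000 to 50000 bp away 42.7 % did.

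**Figure D3:**
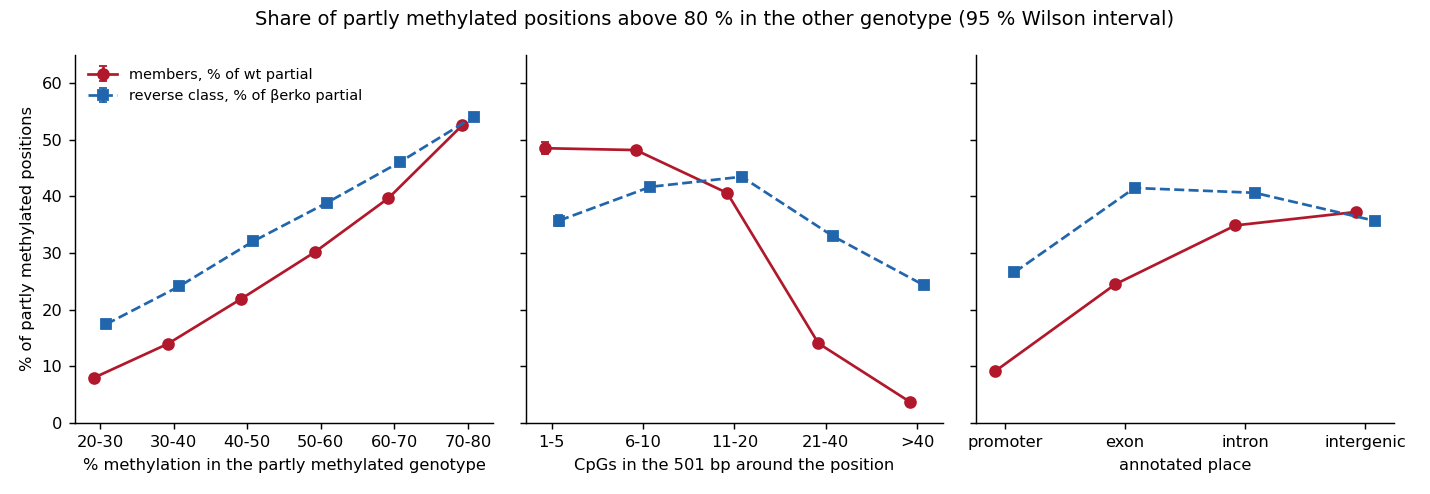
Percent of partly methylated positions that were above 80 % in the other cell type (y axis), by their level of methylation (left), the number of CpGs in the surrounding 501 bp (middle) and the annotated place (right). Red circles are gaining positions as a share of the positions partly methylated in wt, blue squares the reverse class as a share of those partly methylated in βerko MEFs, and bars are 95 % Wilson intervals. The red share falls from 48.5 to 3.72 % with CpG density, whereas the blue share is highest at 43.4 % with 11 to 20 CpGs.

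The bases around the cytosine were also compared. The MspI site CCGG held 53.9 % of the gaining positions, 44.4 % of the partly methylated wt positions and 39.1 % of all covered positions. Of the partly methylated wt positions in CCGG 35.8 % gained. The share was close to this in ACGT with 34.7 %, ACGA with 33.8 % and TCGA with 32.5 %. It was lowest in CCGC with 18.3 % and GCGC with 15.4 %. Short words taken to stand for binding sites of transcription factors were counted within 100 bp of each position. All 3 words read the same on both strands. The word for AP2, GCCNNNGGC, lay near 11.1 % of the gaining positions, 20.3 % of the other partly methylated and 22.7 % of all covered positions. Near positions above 80 % in both cell types it was found at 10.3 %. The E-box CAGCTG was found near 13.1 % of the gaining positions and 11.99 % of all. The word GGTCANNTGACC, by which the study's methods define the oestrogen response element, lay near 0.0333 % of the gaining and 0.0424 % of all positions. Only this exact spacing was counted, so that these shares do not cover other forms of the element. Among the autosomes and chromosome X, the share of partly methylated wt positions that gained ran from 26.8 % on chromosome 19 (25.5 to 28.1 %) to 32.2 % on chromosome X (30.5 to 33.9 %). Chromosome Y, with 49 partly methylated positions, had 16 gaining ones, or 32.7 % (21.2 to 46.6 %), and chromosome M had 0 of 1.

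Runs of gaining positions were few and small. A run was at least 5 positions of the class, each within 100 bp of the next. There were 123 runs with 683 positions, 1.62 % of the class (1.51 to 1.75 %). Of these, 88 had 5 positions, 19 had 6 and 9 had 7, and the largest had 12. The same definition gave 736 runs with 12.7 % of the reverse class, 1863 runs with 40.6 % of the positions that went from partly methylated to below 20 %, and 1328 runs with 17.5 % of those partly methylated in both cell types. The runs had a median length of 84 bp. In 116 of them the positions were on both strands. The mean gain of a run had a median of 31.5 points and ranged from 12.9 to 65.3 points. The number of runs depended on the definition. When both cytosines of a CpG counted once there were 57 runs, and when no covered position outside the class was allowed in between there were 28.

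The runs lay in DNA with more CpGs than the class as a whole, with a median of 22 CpGs in 501 bp. The definition of a run, which needs positions close together, by itself favours such DNA. Most positions were exonic in 41 runs, intronic in 31, in promoters in 13 and intergenic in 38, so that 85 runs touched a gene or promoter. Inside the runs there were 489 covered positions outside the class, which averaged 68.2 % in wt and 74.1 % in βerko MEFs. Of these, 19 went from below 20 to above 80 %. The opposite cytosine was covered for 312 positions in runs, and 224 of these opposite cytosines were themselves gaining positions. As gaining positions of both strands make up a run, the opposite cytosine is no separate reading there. Read counts were known only at 22 hypermethylated DMPs within 100 bp of 8 runs, where the median was 35 reads in wt MEFs and 19.5 in βerko MEFs.

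The largest run was in a coding exon of Prdm6, a repressor of the PR domain family, on chromosome 18 from 53633090 to 53633218. Its 12 positions had from 20 to 70 % methylation in wt and from 90 to 100 % in βerko MEFs. The mean was 37.9 % ± 12.6 (SD over positions, n = 12) in wt and 95.2 % ± 4.5 in βerko MEFs. Some neighbouring positions on the plus strand had equal values, such as 30 and 100 % at both 53633163 and 53633165. The 12 positions are thus not independent readings, and their depth is unknown. The levels of the 2 cell types did not overlap, as the selection requires, and 11 covered positions flanking the run within 1000 bp also had means of 53.3 and 91.6 %.

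The run with the largest mean gain, 65.3 points, lay in Lhx2, a gene for a LIM homeobox factor of limb and forebrain development. It reached from 38207958 to 38208189 on chromosome 2, with 5 of 7 positions in the promoter of an annotated transcript. In wt MEFs the 7 positions had 31.4, 40, 23.7, 24.2, 27.4, 42.3 and 26.9 %, and in βerko MEFs 100, 95, 94.9, 92.3, 96.3, 97.3 and 97.3 %. The 4 other covered positions in the run had means of 8.59 % in wt and 92.8 % in βerko MEFs and all were below 20 % in wt. Of these 4, 3 were above 80 % in βerko MEFs and the other was at 78.95 %. At 3 hypermethylated DMPs within 100 bp there were 89 to 96 reads in wt and 39 to 67 in βerko MEFs.

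The run 2574 bp from Bcl11b, which encodes a zinc finger factor of T cell development, reached from 109244386 to 109244489 on chromosome 12. Its 9 positions had a lowest level of 20.0 %, a median of 32.0 % and a highest of 48.0 % in wt, and 82.6, 91.7 and 100 % in βerko MEFs. The 6 other covered positions between them had means of 35.7 and 43.8 %, so that the gain was not shared by every CpG of this stretch. Some neighbouring positions on the same strand had equal values, such as 20.0 and 91.7 % at both 109244461 and 109244463.

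On chromosome 8 from 94329309 to 94329618, a run of 9 positions lay in an exon of D230002A01Rik, 3756 bp from Irx3, a gene for an Iroquois homeobox factor. It averaged 42.6 % ± 15.9 (SD over positions, n = 9) in wt and 90.2 % ± 6.3 in βerko MEFs. The 23 other covered positions in the run were also higher, with means of 27.5 and 67.7 %. At 4 hypermethylated DMPs nearby, 60 to 86 reads were counted in wt and 41 to 63 in βerko MEFs.

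A run of 7 positions in introns of Gm2301 and Gm16064 on chromosome 5, from 120106924 to 120107047, lay 13631 bp from Tbx3, which encodes a T-box factor of limb development. Its levels were 45.7, 42.9, 35.7, 28.6, 78.6, 42.9 and 21.4 % in wt and 90.7, 93.1, 86.2, 86.2, 100, 82.8 and 96.6 % in βerko MEFs. All 7 were on the plus strand, and the 4 other covered positions had means of 5.97 and 82.8 %. Tbx3 itself went the other way, as 56 of its 59 partly methylated positions went below 20 % and its 90 covered positions had means of 61.7 % in wt and 9.81 % in βerko MEFs. In an intron of Ebf2, a factor of the early B cell factor family, 9 positions on chromosome 14 from 67927886 to 67928062 averaged 51.8 % ± 21.5 (SD over positions, n = 9) in wt and 91.2 % ± 6.9 in βerko MEFs. At 3 other covered positions in the Ebf2 run, methylation was high in both cell types, with means of 93.8 and 81.8 %.

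The intergenic run nearest Gm10320, on chromosome 13 from 99272991 to 99273169, had 10 positions that averaged 45.9 % ± 8.5 (SD over positions, n = 10) in wt and 91.3 % ± 6.7 in βerko MEFs. It was 11035 bp from this predicted gene, and 11 flanking positions had means of 62.4 and 89.8 %.

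In the promoter of Doc2b, a calcium sensor of vesicle fusion, 9 positions on chromosome 11 from 75608512 to 75608752 had means of 56.5 and 90.2 %. There the surroundings moved the other way. The 21 other covered positions in the run had means of 69.2 % in wt and 48.9 % in βerko MEFs, and 87 flanking positions had 47.1 and 17.1 %. In an intron of Actn1, which encodes the actin crosslinker α-actinin, 8 positions gained a mean of 26.1 points, from 66.7 to 92.9 %. In an intron of Ica1, an islet cell autoantigen gene, 7 positions had means of 56.0 and 94.9 %. At Sema6b, which encodes a semaphorin of axon guidance, 7 exonic positions had means of 56.9 and 91.9 %, whereas the 35 other covered positions between them had 82.4 and 71.4 %.

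**Figure D4:**
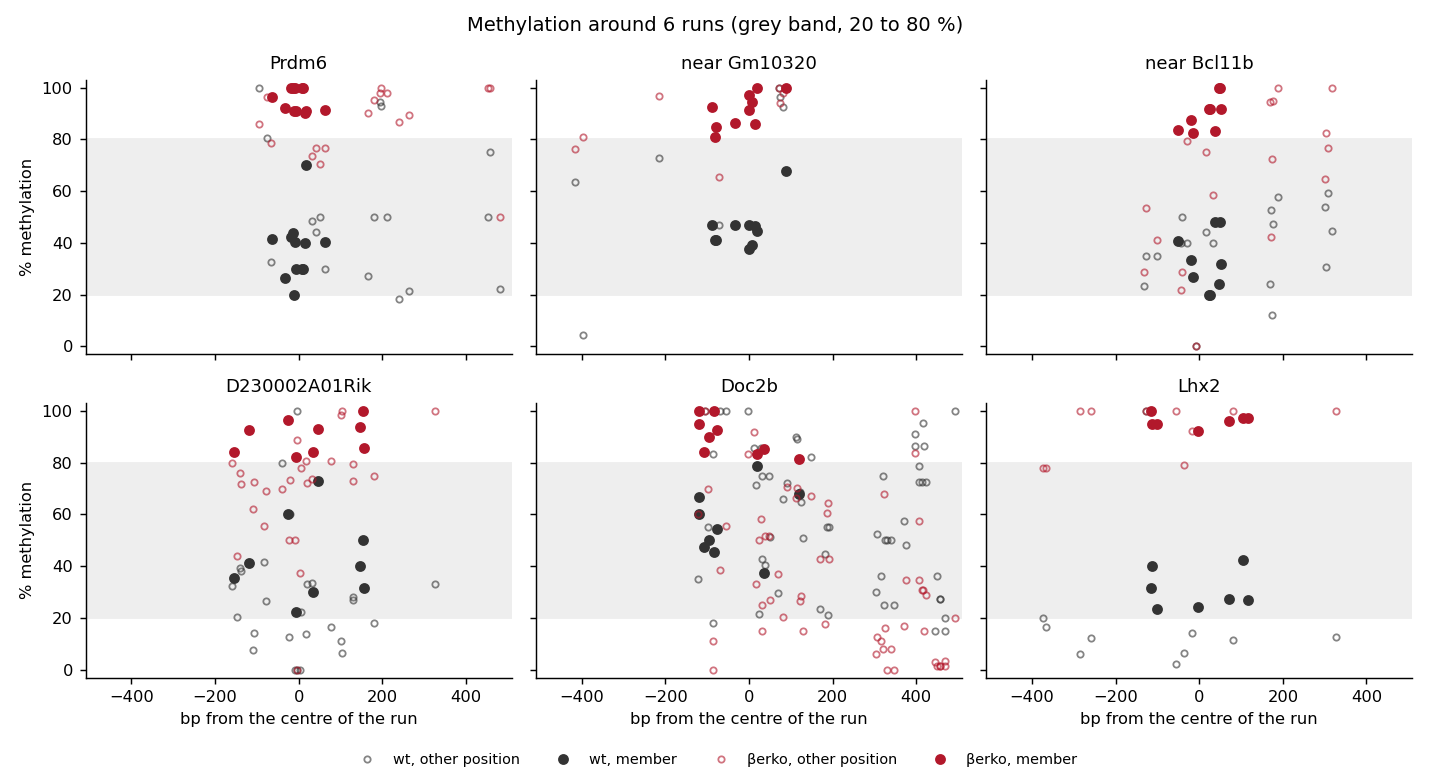
Methylation in percent (y axis) of each covered cytosine in wt (black) and βerko MEFs (red) by distance in bp from the centre of 6 runs (x axis). Filled circles are positions of the run, open circles other covered positions, and the grey band marks 20 to 80 %; around Lhx2 the open circles also rise, whereas around Doc2b they fall from a mean of 47.1 % to 17.1 % in the flanks up to 1000 bp.

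**Figure D5:**
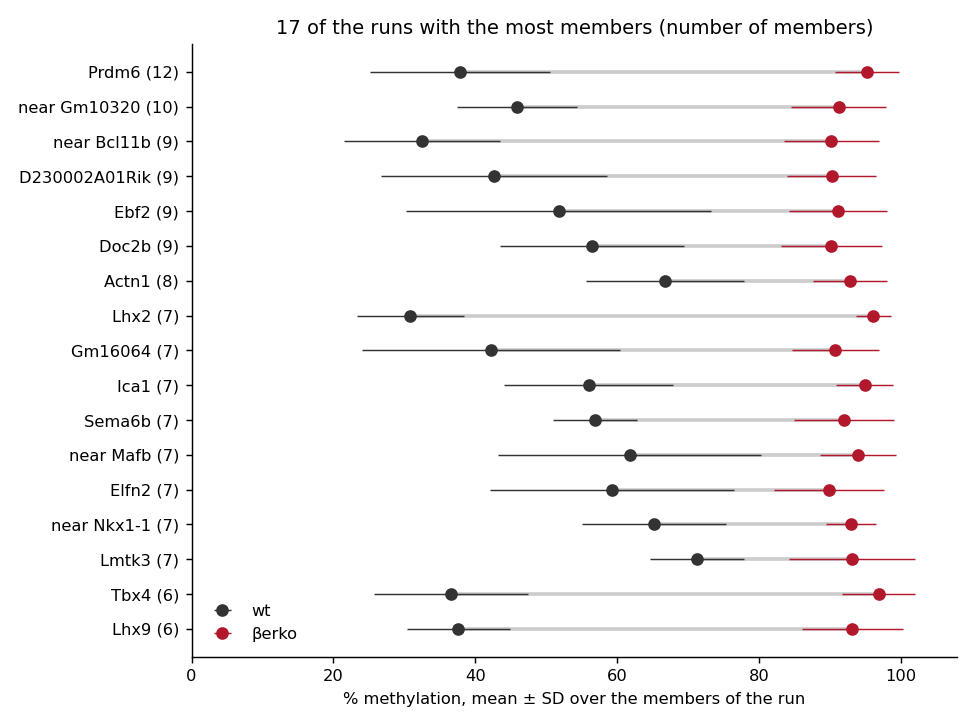
Mean methylation in percent (x axis) of 17 of the runs with the most positions (y axis, number of positions in brackets) in wt (black) and βerko MEFs (red), with bars for the SD over the positions of the run. Runs are named by the first gene they overlap or the nearest gene; the largest distance is 65.3 points at Lhx2, and Actn1 went from 66.7 to 92.9 %.

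Positions of the class lay in the body or promoter of 8828 of 20797 genes with covered positions, with a median of 2 in these genes and at least 10 in 355 genes. Gm20388, an annotated model on chromosome 8 from 122434241 to 126869622 that runs across many other genes, had 354. Fgfr2, whose model in this annotation spans 137305965 to 140315533 on chromosome 7, had 68, and Camta1, a calmodulin-binding transcription activator, 64. Prdm16, a factor of brown fat, had 55 positions with means of 55.7 and 92.4 %, but 70 of its 166 partly methylated positions went below 20 %, and its 370 covered positions had means of 70.7 % in wt and 59.95 % in βerko MEFs. Prdm16 was followed by Wwox with 43, Zbtb7c with 39, the axonemal dynein gene Dnahc17 with 38, Gm16736 with 36, and by Cdh23 and Shank2 with 35 each. As a share of the gene's partly methylated wt positions, these numbers were 63.2 % in Wwox, 59.4 % in Dnahc17, 33.1 % in Prdm16 and 29.3 % in Fgfr2. Over all genes the share was 25.4 % (25.1 to 25.6 %), and 34.7 % of the partly methylated positions went below 20 %.

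Homeobox and other patterning transcription factors had a lower share of gaining positions than all genes. The gene lists here and below were not matched for CpG density or place, by which this share also differed. Over all partly methylated wt positions it was 14.0 % with 21 to 40 CpGs in 501 bp, 9.11 % in promoters and 34.8 % in introns. Whether the lists differ beyond density and place was not tested. In 139 of these genes, 401 of 3597 partly methylated wt positions gained, or 11.1 % (10.2 to 12.2 %), and 49.5 % went below 20 %. Of the 401, 57 were in runs and 78 in promoters. Their median gain was 33.3 points, against 27.8 over all genes, and 84 of the genes had at least 1.

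Tbx4, the T-box factor of the hindlimb, had 27 gaining positions among 31 that were partly methylated in wt, and none of the 31 went below 20 %. The lowest, median and highest levels of the 27 were 20.6, 41.2 and 80 % in wt and 87.9, 100 and 100 % in βerko MEFs. The gain extended over the covered part of the gene. Of 76 covered positions, 59 were higher by at least 20 points and 1 was lower by as much, and their mean went from 34.6 to 79.3 %. Among the 59 higher positions, 13 went from below 20 to above 80 %. In its promoter, from 85699916 to 85699956 on chromosome 11, a run of 6 positions had means of 36.6 and 96.9 %.

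Hoxd12, a homeobox gene of the distal limb, had 14 gaining positions among 19. Of its 37 covered positions, 29 were higher by at least 20 points and 0 were lower by as much, with means of 37.3 % in wt and 76.9 % in βerko MEFs. In Tbx2, 26 of 84 partly methylated positions gained, and in Hoxd3 22 of 90. Lhx2 had 21 among 70, but 29 others went below 20 %, and its covered positions had means of 33.1 and 39.0 %. In Pax5, a factor of B cell identity, 14 of 120 gained and 71 went below 20 %. Hoxd12, Pax5, Lhx9 and Hoxb5 were chosen for mention after their values were seen. The Lhx9 promoter run, printed above, went from 25.8, 48.4, 38.7, 36.1, 37.9 and 38.9 % to 80.95, 95.2, 90.5, 92.5, 100 and 100 %, while 18 flanking positions had means of 39.7 and 40.04 %. The run of 6 in a coding exon of Hoxb5 had means of 58.5 and 87.9 %.

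Genes of fibroblasts and the extracellular matrix had a higher share than all genes, with 228 of 602 partly methylated positions, or 37.9 % (34.1 to 41.8 %), and 27.2 % went below 20 %. None of the 228 were in runs, and 5 were in promoters. Col23a1, a transmembrane collagen, had 23 of 48, and the metalloproteases Adamts17 and Adamts2 had 22 of 36 and 19 of 58. Lama1, a laminin chain of basement membranes, had 17 of 27, with levels from 36.8 to 79.6 % in wt and from 82.1 to 100 % in βerko MEFs. In Adamts2 another 31 went below 20 %.

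Of 141 partly methylated positions in germline genes, 53 gained, or 37.6 % (30.0 to 45.8 %), and 36 went below 20 %. Of the gaining positions, 17 of the 53 were in promoters. Tdrd9, a helicase gene of the piRNA pathway, had 10 of 22, Tdrd1 6 of 11, Hormad1 5 of 6 and Mov10l1 4 of 5. The 5 positions of Hormad1 had levels from 41.1 to 78.6 % in wt and from 83.3 to 98.2 % in βerko MEFs, and the 31 covered positions of this gene were already at a mean of 88.3 % in wt.

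Imprinted genes had 101 gaining positions among 634, or 15.9 % (13.3 to 19.0 %), and 31.1 % of the 634 went below 20 %. Kcnq1 had 17 of 49, Gnas 16 of 106, Igf2 9 of 44 and Trappc9 6 of 28. At Igf2, the gene of a growth factor, 5 promoter positions formed a run with means of 60.6 and 91.3 %, and the 15 other covered positions between them had 38.6 and 17.99 %.

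Genes of the Wnt, TGF-β and BMP pathways had 191 among 1177, or 16.2 % (14.2 to 18.4 %), with none in runs, and 527, or 44.8 %, went below 20 %. Wnt3a, a Wnt ligand, had 14 of 48, while 24 of the 48 went below 20 %. Lef1, a transcription factor of the Wnt pathway, had 12 of 15. Ltbp2 had 11 of 38 and Bmp7, a BMP ligand, had 10 of 50. The 12 positions in Lef1 had levels from 41.7 to 80 % in wt and from 81.03 to 100 % in βerko MEFs. In genes that set, read or remove DNA methylation 17 of 65 gained, or 26.2 % (17.0 to 38.0 %), and 27 went below 20 %. The maintenance methyltransferase gene Dnmt1 had 4 of 7, Mbd2 3 of 4, Dnmt3a 2 of 12 and Smug1 2 of 4. Tdg, added here because the study deals with it, had 1, which went from 65.7 to 94.8 %.

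Among genes of oestrogen receptors and related orphan receptors, 36 of 104 gained, or 34.6 % (26.2 to 44.2 %), and 35 went below 20 %. Of the 36, 20 were in Esrrb, an orphan receptor of pluripotent cells, so that the share of this list rests largely on 1 gene. Of the 109 covered positions of Esrrb, 26 were higher and 11 lower in βerko MEFs by at least 20 points. Esrrg had 8 of 34 and Esr1, the gene for oestrogen receptor α, 3 of 19. In Esr2 itself, the targeted gene, 3 of 6 partly methylated positions gained and the other 3 went below 20 %. The 3 that gained had a lowest level of 42.9 %, a median of 51.6 % and a highest of 78.8 % in wt, and 88.2, 95.2 and 95.2 % in βerko MEFs. Methylation does not show whether the gene is disrupted.

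Of the genes that were followed up in the study, Tnfaip2, a target of tumour necrosis factor, had 5 gaining positions among 25 partly methylated ones, with means of 58.7 and 96.9 %. Dyx1c1 had 3 among 8 in the longer of its 2 annotated models. The 44 covered positions of this model had means of 36.3 % in wt and 33.2 % in βerko MEFs, and 6 of them went from above 80 % to between 20 and 80 %. Hoxa10 had 1 gaining position, its single partly methylated one, which went from 20.0 to 94.4 %, and Pitx1 had 1 of 13, which went from 28.6 to 100 %. Pitx1 as a whole was lower in βerko MEFs, as its 163 covered positions had means of 63.6 % in wt and 32.3 % in βerko MEFs. Of these, 47 went from above 80 % to between 20 and 80 %. In Hoxa9 and Hoxd9, 0 of 1 and 0 of 8 partly methylated positions gained. In the homeobox genes Hoxa9 and Hoxa10, the 87 and 65 covered positions were nearly free of methylation in wt, with means of 0.583 and 0.587 %. Few of their positions could therefore enter the class, although their means in βerko MEFs were 29.9 and 28.7 %. The 75 covered positions of Hoxd9 had means of 94.2 % in wt and 3.98 % in βerko MEFs.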

How the data were processed

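The RRBS data were 1 pooled library of wt and 1 of βerko MEFs. For mapping, the authors used the Genomatix Mining Station (version not given in the sources used here), and the submitters' processing notes name CASAVA 1.4 and the build mm9. The deposited table of common positions holds, for 826937 CpG cytosines with a value in both libraries, the percent of methylated reads and no coverage. Whether positions with few reads had been removed is not given in the sources used here. The deposited DMP tables hold read counts per position and library and the authors' RegionMiner annotation, of which the counts were used.

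Positions were taken on both strands separately, with thresholds of 20 and 80 % methylation and no other filter. As depth at these positions is unknown, no p-value was computed. Shares have 95 % Wilson intervals and medians 95 % order-statistic intervals. CpG density was counted in 501 bp of NCBIM37, and places were taken from GENCODE gene models of the same build in the order promoter, exon, intron, intergenic. Flanks of a run reached from 100 to 1000 bp. Named were the 12 runs and 10 genes with the most positions, up to 4 genes of each list, the 5 CpGs with the largest gain on both strands, and 6 genes followed up in the study. Some items that these rules name are not reported here. The class, the gene lists and these rules were chosen with earlier results of these data known. The software was Python 3.11.15, SciPy 1.17.1 for intervals, pysam 0.24.0 for sequences, pandas 2.3.3 and NumPy 2.4.6 for tables, and matplotlib 3.10.9 for plots. The procedures were tested on simulated data. Alternatives were tried for the thresholds, strands, chromosomes X and M, runs, neighbours, promoters, gene models and windows. Expression data were not analysed here.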

Additional observations from a re-analysis of the deposited data

How the results depend on the processing

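No paired analysis was possible because each cell type had 1 library. Of the 42 alternatives, 9 stayed within 1.5 times the count or within the interval of the reported value, and 33 moved outside. A change of sign could be seen only for the opposite cytosine, where none occurred. Counts, shares, densities and the gain cannot be negative, and the reported neighbour median was 0. The number of gaining positions was 23410 with wt levels of 30 to 70 %, 26508 with more than 90 % in βerko MEFs and 11665 with gains of at least 40 points. The share of partly methylated positions that gained was 27.2 % with wt levels of 30 to 70 %, 18.6 % with more than 90 % in βerko MEFs and 30.0 % with merged strands, and the median gain was 36.7 and 30.1 points under the first 2 of these. The number of runs and the percent of positions in them were 1301 and 10.6 % with at least 3 positions, 2 and 0.0523 % with at least 10, 73 and 0.951 % with gaps of 50 bp, and 198 and 2.79 % with gaps of 200 bp. They were 28 and 0.357 % without covered positions in between, 57 and 0.820 % with each CpG counted once, and 51 and 0.953 % with gains of at least 20 points. The opposite cytosine differed by 24.5 points with gains of at least 20 points and by 26.2 points with wt levels of 30 to 70 %. Neighbours differed by 3.04 points with gaining positions counted among them, an alternative chosen after seeing the data. Promoters held 4.39 % and intergenic DNA 45.1 % of the positions with 1 position per 500 bp chain, 3.77 and 47.2 % with protein-coding genes only, and 9.78 and 43.5 % with promoters between 1000 bp before and 500 bp after a start, the latter intergenic share also chosen after seeing the data. Median CpG density was 5 with 100 bp to each side and 10 with 1 position per chain. The unknown depth limits each single position, and the cause of these shifts was not tested beyond what the thresholds remove.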
